A study of Mus musculus with 8 samples.

Results

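The genes of the proteasome were followed in 4 groups of double-negative (CD4-CD8-) mouse cells measured on Affymetrix expression arrays. They are all genes whose platform symbol begins with Psma, Psmb, Psmc, Psmd, Psme or Psmf, leaving out the immunoproteasome subunits Psmb8, Psmb9 and Psmb10. Where a gene had several probe sets, the one with the greatest mean over the 8 arrays was used. That gave 41 of the 12394 genes measured: 8 of the alpha ring, 7 of the beta ring, 6 ATPases and 3 other subunits of the base, 8 of the lid, 3 assembly chaperones of the base, 3 activators, 1 inhibitor and 2 that are no proteasome subunit. The last 2 are Psmc3ip, a cofactor of meiotic recombination, and Psme3ip1, whose product binds the activator encoded by Psme3. The only Psme2 probe set also matches Psme2b and was left out.

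The groups were spleen emigrants of TCDD-treated mice, spleen emigrants of mice given corn oil, thymocytes of TCDD-treated mice and thymocytes of mice given corn oil, with 2 arrays each. All were female C57BL/6 mice aged 6 to 8 weeks. TCDD, a dioxin that activates the aryl hydrocarbon receptor (AhR), was injected into the peritoneum at 10 µg/kg in corn oil. FITC was put into the thymus of all mice 5 days later, and after 24 h FITC-marked cells without CD4 and CD8 were sorted from thymus and spleen. Whether the arrays of 1 group represent different mice is not in the labels, so a p-value covers the spread between these samples alone, which may be technical, and the number of arrays limits every value's precision. Some labels conflict. Under Treatment, emigrants oil 1 is given as TCDD and emigrants oil 2 as Dioxane 2. Several emigrant arrays have thymus as their tissue, the protocol of the TCDD thymocytes names corn oil alone, and the Treatment field gives 10 nM instead of the injected dose. Groups follow the titles.

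The proteasome is the protease that degrades proteins tagged with ubiquitin. Its core particle is a barrel of alpha rings around beta rings, and the beta subunits encoded by Psmb5, Psmb6 and Psmb7 carry the proteolytic sites. The regulatory particle caps the barrel: the ATPases of its base unfold the substrate, and the lid removes ubiquitin. In T cells and their precursors it degrades cell cycle and signalling proteins and supplies peptides for antigen presentation.

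All levels and differences below are on the log2 scale of the deposited expression values. Of the 41 genes, 38 lay above the array median in all 4 groups. The exceptions were Psma8, an alpha subunit known from testis, and the lid gene Psmd7, which did so in 0 of 4 groups, and the chaperone gene Psmd10, which did so in 2 of 4. An array reads RNA of the whole sorted sample, so fewer cells of a type and less RNA per cell cannot be told apart.

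Some arrays differed in ways that touch the results. Rag1, which marks developing thymocytes, lay at 5.10 and 3.75 in TCDD emigrants and at 3.89 and 9.81 in oil emigrants, against 9.33 to 10.21 in thymocytes, so emigrants oil 2 stood with the thymocytes for this gene. Of 7 measured T lineage markers, 6 or 7 lay above the array median in each group, while Cd4 stayed between 4.53 and 5.31 (array medians 4.81 to 4.91) and Cd8a between 4.57 and 7.14. The 14 measured proliferation genes, all above the array median, had a summed linear signal of 5907 and 5056 in TCDD emigrants and 4645 and 8166 in oil emigrants, against 12393 and 8678 in TCDD thymocytes and 15106 and 11865 in oil thymocytes. The 5 B cell markers, of which at most 2 lay above the array median in a group, summed to 139 and 99.8 in TCDD emigrants and 126 and 101 in oil emigrants, against 277 and 718 in TCDD thymocytes and 285 and 384 in oil thymocytes. The 7 early T progenitor markers summed to 1239 and 1295 in TCDD emigrants and 1061 and 1733 in oil emigrants, against 3014 and 3007 in TCDD thymocytes and 2709 and 2425 in oil thymocytes. The sums of these 3 lists were thus lower in emigrants than in thymocytes in all arrays. On the proliferation list, Ccnb2, Cdk1, Mcm3, Mcm6 and Aurkb were lower in every emigrant array. The others overlapped, among them Mki67 (8.45 to 9.29, against 7.73 to 10.41 in thymocytes). On the early T progenitor list, Ptcra, Rag2, Il2ra and Notch1 were lower in every emigrant array. Cd44 was higher in every emigrant array (8.54 to 9.41, against 7.21 to 8.37 in thymocytes), and Kit overlapped (6.72 to 8.64, against 5.89 to 6.83). Emigrant sums were higher in all arrays for the macrophage markers, at 2661 and 2732 in TCDD emigrants and 1452 and 1826 in oil emigrants, against 1050 and 1250 in TCDD thymocytes and 1301 and 1387 in oil thymocytes, and for the NK markers, at 720 and 882 in TCDD emigrants and 1005 and 1333 in oil emigrants, against 335 and 704 in TCDD thymocytes and 322 and 393 in oil thymocytes. Of the macrophage markers, Csf1r alone was higher in every emigrant array (9.71 to 10.63, against 8.64 to 9.34 in thymocytes). Each NK marker overlapped between the sources, among them Klrd1 (7.16 to 9.64, against 6.65 to 8.05) and Gzmb (6.46 to 9.34, against 6.67 to 8.28). The 8 granulocyte markers overlapped, at 6018 and 581 in TCDD emigrants and 1030 and 827 in oil emigrants, against 3630 and 1093 in TCDD thymocytes and 3390 and 2150 in oil thymocytes. The platelet sums were 488 and 1222 in TCDD emigrants and 286 and 389 in oil emigrants, against 262 and 689 in TCDD thymocytes and 281 and 271 in oil thymocytes, and the thymic epithelial sums 158 and 161 in TCDD emigrants and 171 and 186 in oil emigrants, against 230 and 280 in TCDD thymocytes and 175 and 262 in oil thymocytes. Both overlapped over the 4 emigrant and 4 thymocyte arrays, as did the erythroid, dendritic, double-positive and T lineage sums. Within 1 treatment, T lineage and thymic epithelial sums were lower in emigrants without overlap under TCDD, and under oil granulocyte sums were lower and platelet sums higher. The part of these lists in the results below was not tested.

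The first comparison asks how proteasome genes differ between cells that left the thymus and cells still in it. Most had a lower mean in emigrants: 32 of 41 under TCDD, where 42.8% of all genes did, and 36 of 41 under oil, where 49.6% did. The other 9 and 5 were higher (57.2% and 50.4% of all genes). The median log2 difference of the 41 was -0.42 under TCDD and -0.52 under oil, with medians over all genes of 0.04 and 0.00. Without the 2 genes that are no subunit it was -0.42 and -0.50. The summed proliferation signal, though not every gene in it, was also lower in every emigrant array, and its part in this difference was not tested.

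No proteasome gene passed the test over all genes in either comparison (limma, Benjamini-Hochberg, threshold 0.05), and 0% of the 12394 genes did. The smallest adjusted p of any gene was 0.0503 under TCDD and 0.0595 under oil. At an unadjusted p under 0.05, 6 of the 41 were lower under TCDD (4.45% of all genes) and 0 higher (3.81%). Under oil 9 were lower (5.09%), of which 1 is no proteasome subunit, and 0 higher (4.48%). Of the 6197 brighter genes, which hold 39 of the 41, 7.79% were lower and 5.81% higher under TCDD, and 8.71% lower and 7.87% higher under oil.

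**Figure D1:**
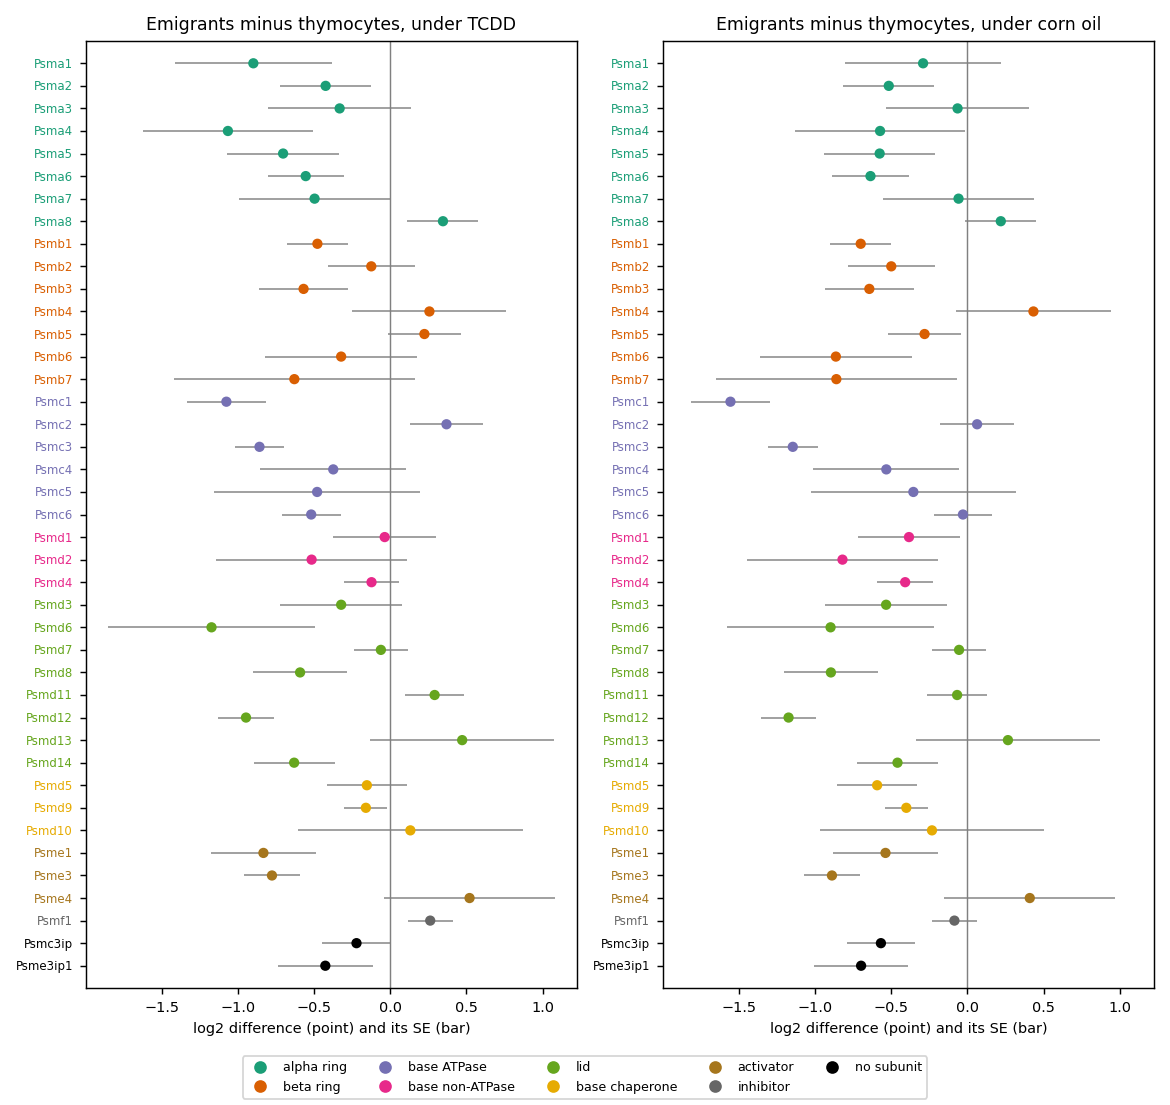
Log2 difference, emigrants minus thymocytes, for each of the 41 genes (points, coloured by role) with its standard error (bars), under TCDD on the left and corn oil on the right. Of the points, 32 lie left of 0 under TCDD and 36 under oil, with Psmc1, Psmc3, Psmd12 and Psme3 among those farthest from 0 relative to their bars.

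Among the ATPases of the base, Psmc1 and Psmc3 stood lowest. Psmc1 had 5.86 and 5.38 in TCDD emigrants, against 6.86 and 6.53 in TCDD thymocytes, and 5.81 and 6.15 in oil emigrants, against 7.76 and 7.32 in oil thymocytes. All 4 emigrant arrays lay below all 4 thymocyte arrays. The mean was 2.11-fold lower in emigrants under TCDD (log2 difference -1.08, SE 0.26, n = 2 each, limma adjusted p = 0.378) and 2.94-fold lower under oil (-1.55, SE 0.26, adjusted p = 0.184). A second, dim Psmc1 probe set, at a mean level of 3.23, gave 0.33 and -0.04. Psmc3, another ATPase of the ring, had 7.03 and 6.89 in TCDD emigrants, against 7.71 and 7.92 in TCDD thymocytes, and 6.96 and 7.25 in oil emigrants, against 8.24 and 8.26 in oil thymocytes. The arrays again did not overlap, with a 1.81-fold lower mean in emigrants under TCDD (log2 difference -0.86, SE 0.16, limma adjusted p = 0.337) and a 2.21-fold lower one under oil (-1.15, adjusted p = 0.184). The ring's genes did not share 1 direction: Psmc4 differed by -0.37 under TCDD and -0.53 under oil, Psmc5 by -0.48 under TCDD and -0.35 under oil, Psmc6 by -0.52 under TCDD and -0.03 under oil and Psmc2 by 0.37 under TCDD and 0.06 under oil.

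Of the other base subunits, the scaffold gene Psmd2 had 7.76 and 8.05 in TCDD emigrants, against 9.13 and 7.71 in TCDD thymocytes, and 7.68 and 8.37 in oil emigrants, against 9.59 and 8.10 in oil thymocytes. These arrays overlapped, at differences of -0.52 under TCDD and -0.82 under oil (SE 0.63). The second scaffold gene, Psmd1, differed by -0.04 under TCDD and -0.38 under oil, and Psmd4, a ubiquitin receptor, by -0.12 under TCDD and -0.41 under oil. Another Psmd4 probe set (mean level 6.77) had the opposite sign, at 0.34 and 0.14. Of the 3 assembly chaperones, Psmd5 differed by -0.15 under TCDD and -0.59 under oil, Psmd9 by -0.16 under TCDD and -0.40 under oil and Psmd10 by 0.13 under TCDD and -0.23 under oil. A second Psmd9 probe set (mean level 5.06) gave -0.16 and 0.08.

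In the lid, 6 of 8 genes had a lower mean in emigrants under TCDD and 7 of 8 under oil. Psmd12, a structural lid subunit, had 5.86 and 5.72 in TCDD emigrants, against 6.84 and 6.62 in TCDD thymocytes, and 6.08 and 6.24 in oil emigrants, against 7.15 and 7.51 in oil thymocytes. The 4 emigrant arrays were all below the 4 thymocyte arrays. The mean was 1.93-fold lower in emigrants under TCDD (log2 difference -0.95, SE 0.18, limma adjusted p = 0.337) and 2.26-fold lower under oil (-1.17, adjusted p = 0.184). Psmd14, which encodes the deubiquitinase of the lid, had 9.86 and 9.06 in TCDD emigrants, against 9.99 and 10.19 in TCDD thymocytes, and 9.79 and 9.70 in oil emigrants, against 10.13 and 10.28 in oil thymocytes. Its arrays did not overlap either, at differences of -0.63 under TCDD and -0.46 under oil (SE 0.27). Psmd8 was also lower in every emigrant array, at differences of -0.59 under TCDD and -0.90 under oil. Psmd6 differed by -1.17 under TCDD and -0.90 under oil (SE 0.68) with a wide spread between thymocyte arrays, at 8.52 and 9.86 under TCDD and 8.54 and 10.40 under oil. Psmd13 had higher means in emigrants, by 0.47 under TCDD and 0.27 under oil.

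In the core particle, 7 of 8 alpha genes had a lower mean in emigrants in both comparisons, with medians of -0.53 under TCDD and -0.40 under oil. Psma6 was lower in every emigrant array (-0.55 under TCDD and -0.64 under oil), and a second Psma6 probe set, at a mean level of 9.38, gave -1.18 and -0.87. The beta genes had medians of -0.32 and -0.64. Psmb1 (-0.48 under TCDD and -0.70 under oil) and Psmb3 (-0.57 under TCDD and -0.64 under oil) were lower in every emigrant array, and a second Psmb3 probe set (mean level 6.45) gave -0.80 and -0.11. Another Psmb1 probe set, at a mean level of 6.10, gave -0.29 and 0.04. Psmb4 was an exception in the beta ring, with 10.63 and 10.60 in TCDD emigrants, against 9.65 and 11.06 in TCDD thymocytes, and 10.81 and 10.80 in oil emigrants, against 9.85 and 10.89 in oil thymocytes. Its groups overlapped, at differences of 0.26 under TCDD and 0.43 under oil. A second Psmb4 probe set (mean level 8.67) had the opposite sign under TCDD, at -0.18, and gave 0.23 under oil.

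The catalytic subunits gave no common picture. Psmb5, of the chymotrypsin-like site, had 8.31 and 8.64 in TCDD emigrants, against 7.99 and 8.51 in TCDD thymocytes, and 8.11 and 8.46 in oil emigrants, against 8.53 and 8.60 in oil thymocytes. It overlapped under TCDD and was lower without overlap under oil (0.22 and -0.28, SE 0.24). Psmb6, of the caspase-like site, had 7.91 and 9.14 in TCDD emigrants, against 8.55 and 9.14 in TCDD thymocytes, and 7.85 and 8.89 in oil emigrants, against 9.21 and 9.25 in oil thymocytes. It too overlapped under TCDD and did not under oil (-0.32 and -0.86, SE 0.50). Psmb7, of the trypsin-like site, had 8.02 and 8.41 in TCDD emigrants, against 8.25 and 9.43 in TCDD thymocytes, and 8.13 and 9.13 in oil emigrants, against 8.36 and 10.63 in oil thymocytes. Its groups overlapped in both comparisons (-0.63 and -0.86, SE 0.79). The immunoproteasome subunits that can replace these differed by -0.02 under TCDD and -0.07 under oil for Psmb8, -0.62 under TCDD and -0.16 under oil for Psmb9 and 0.73 under TCDD and 0.63 under oil for Psmb10, none past the test.

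**Figure D2:**
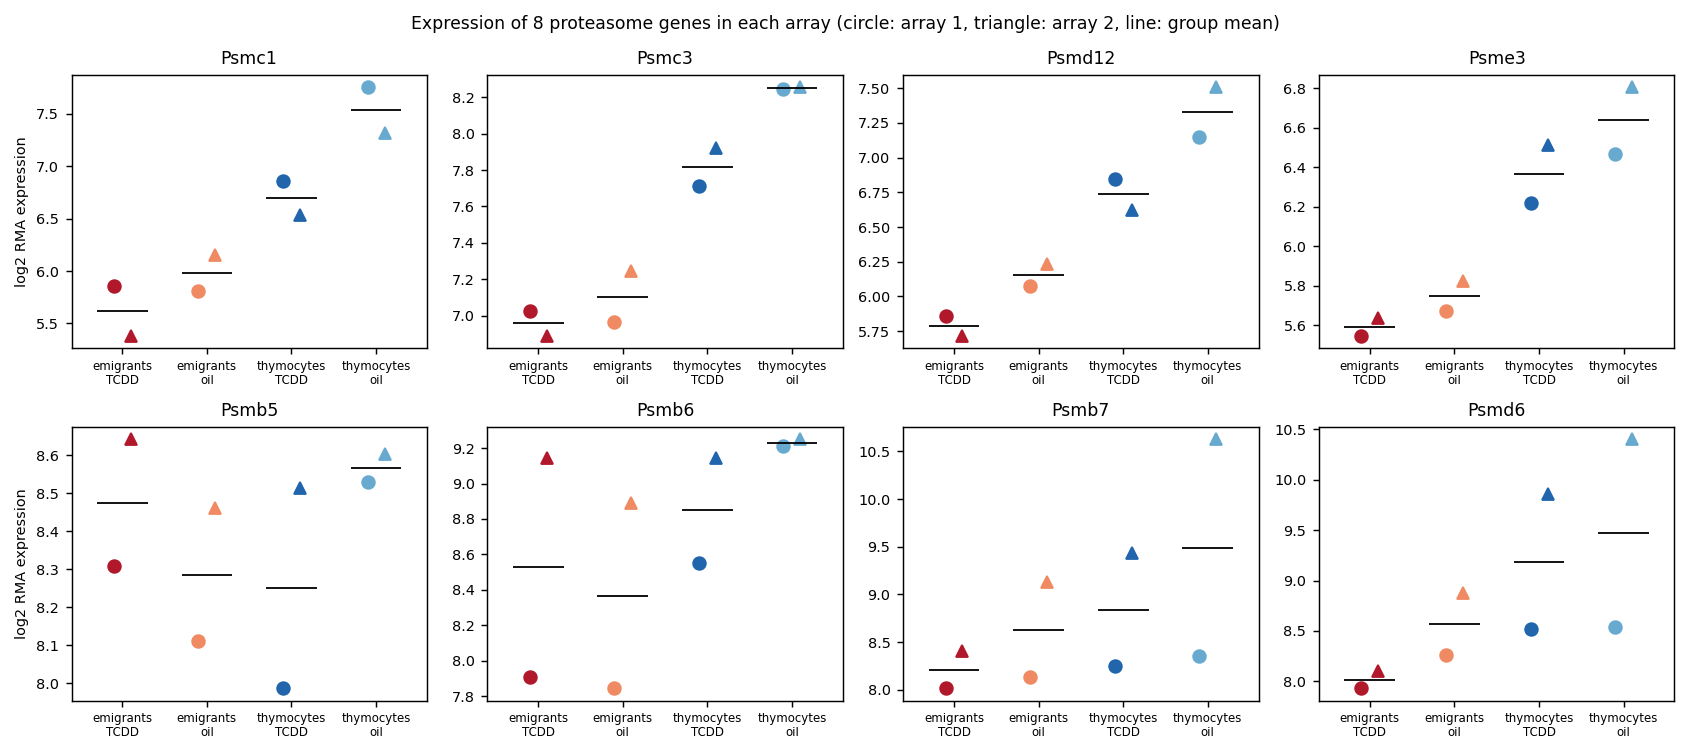
Log2 expression of 8 proteasome genes in each array, by group, with array 1 as a circle, array 2 as a triangle and the group mean as a line; the vertical axes do not start at 0. The emigrant arrays of Psmc1, Psmc3, Psmd12 and Psme3 lie below all thymocyte arrays, while Psmb7 ranges between 8.36 and 10.63 within oil thymocytes alone.

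The activators differed among themselves. Psme3, which encodes the nuclear activator, had 5.55 and 5.63 in TCDD emigrants, against 6.22 and 6.51 in TCDD thymocytes, and 5.67 and 5.82 in oil emigrants, against 6.47 and 6.81 in oil thymocytes. All emigrant arrays lay below all thymocyte arrays, with a 1.71-fold lower mean under TCDD (log2 difference -0.78, SE 0.18, limma adjusted p = 0.378) and a 1.85-fold lower one under oil (-0.89, adjusted p = 0.232). Dim Psme3 probe sets gave 0.20 and -0.08 (mean level 3.85), and 0.24 and 0.02 (mean level 3.27). Psme1, an interferon-inducible activator subunit, had 8.60 and 7.75 in TCDD emigrants, against 9.03 and 8.98 in TCDD thymocytes, and 8.66 and 8.19 in oil emigrants, against 9.26 and 8.67 in oil thymocytes. It was also lower in every emigrant array (-0.83 and -0.54, SE 0.34). Psme4, a large single-chain activator, had 7.71 and 7.85 in TCDD emigrants, against 7.73 and 6.78 in TCDD thymocytes, and 7.60 and 7.41 in oil emigrants, against 7.93 and 6.26 in oil thymocytes. Its groups overlapped, with higher means in emigrants (0.52 and 0.41, SE 0.56), and a second Psme4 probe set (mean level 6.53) gave -0.09 and 0.16. The inhibitor gene Psmf1 differed by 0.26 under TCDD and -0.09 under oil (SE 0.15).

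Counted over the members, both emigrant arrays lay below both thymocyte arrays for 16 of 41 genes under TCDD (15.5% of all genes) and 22 under oil (19.6%). Of the brighter genes, 22.6% and 23.2% did. Among the members counted, 1 under TCDD and 2 under oil are no proteasome subunit. Psmc3ip differed by -0.22 under TCDD and -0.57 under oil, and Psme3ip1 by -0.43 and -0.70. The reverse, emigrant arrays above thymocyte arrays, held for 4 under TCDD (22.1%), namely Psma8, Psmc2, Psmd11 and Psmf1, and for 0 under oil (19.8%). Psma8 lay below the array median in every array. Other Psmd11 probe sets gave 0.32 under TCDD (mean level 8.58) and, with the opposite sign, -0.34 (mean level 7.67). In 12 genes, of which 1 is no subunit, the lower order held under both TCDD and oil (8.19% of all genes), and the higher order in 0 (9.58%). All 4 emigrant arrays lay below all 4 thymocyte arrays for 10 of 41, or 24.4%, against 6.04% of all genes and 9.94% of the 6197 brighter genes. These were Psma6, Psmb1, Psmb3, Psmc1, Psmc3, Psmd8, Psmd12, Psmd14, Psme1 and Psme3. They lay above in 0 of 41, against 6.87% of all genes.

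The medians depended on single arrays. Under TCDD the median was -0.26 without emigrants TCDD 2 and -0.25 without thymocytes TCDD 2, with 29 and 26 of 41 genes lower. Without emigrants oil 2, the array with the thymocyte level of Rag1, the median under oil was -0.47 with 35 lower. Without emigrants oil 1, whose Treatment field names TCDD, it was -0.36 with 31 lower, and without thymocytes oil 2 it was -0.36 with 28 lower.

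**Figure D3:**
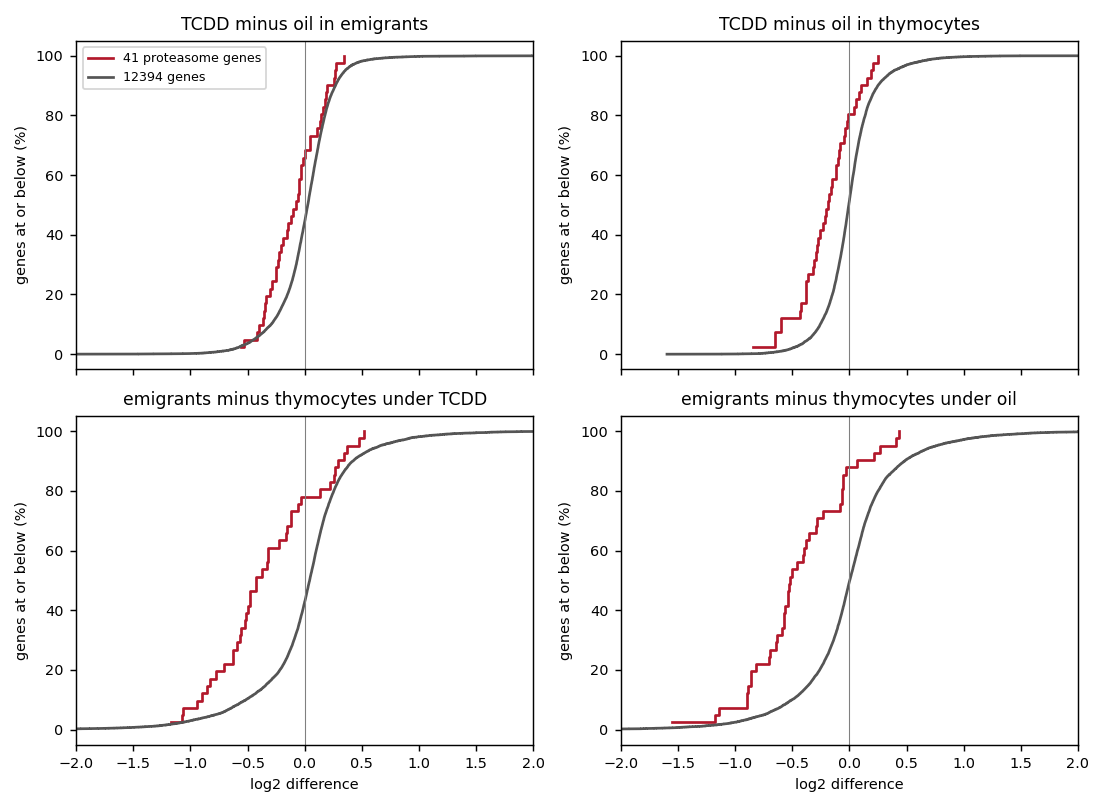
Cumulative share of genes (percent, vertical axis) at or below each log2 difference (horizontal axis, shown between -2 and 2) for the 41 proteasome genes in red and all 12394 genes in grey, in the 4 comparisons. The red curve crosses the middle at -0.42 and -0.52 in the comparisons of emigrants with thymocytes under TCDD and under oil, left of the grey one.

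The promoters of 3 of the genes with non-overlapping levels were read from RefSeq (GRCm38.p6), as the 250 bases before the annotated start. They are shown for Psmc1, Psmd12 and Psme3, and for Psmb5 as a catalytic subunit. Capitals mark CCAAT, the box bound by NF-Y, and TGACNNNGC, the antioxidant response element core, on either strand.
Psmc1, chr12:100109952-100110201, plus strand: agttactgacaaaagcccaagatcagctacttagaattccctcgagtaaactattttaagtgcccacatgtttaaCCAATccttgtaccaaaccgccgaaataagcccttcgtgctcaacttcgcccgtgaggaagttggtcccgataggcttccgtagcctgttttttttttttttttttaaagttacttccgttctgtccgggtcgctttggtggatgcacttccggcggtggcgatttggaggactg
Psmd12, chr11:107479278-107479527, plus strand: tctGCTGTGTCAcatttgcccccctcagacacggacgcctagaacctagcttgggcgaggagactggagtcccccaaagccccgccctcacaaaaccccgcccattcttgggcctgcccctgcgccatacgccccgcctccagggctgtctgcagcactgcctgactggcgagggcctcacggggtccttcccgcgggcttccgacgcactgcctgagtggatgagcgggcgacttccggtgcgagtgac
Psme3, chr11:101315963-101316212, plus strand: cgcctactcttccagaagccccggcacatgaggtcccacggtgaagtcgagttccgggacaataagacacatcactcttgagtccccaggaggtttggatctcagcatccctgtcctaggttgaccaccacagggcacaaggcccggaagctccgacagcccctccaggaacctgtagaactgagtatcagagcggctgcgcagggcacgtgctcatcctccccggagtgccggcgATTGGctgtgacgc
Psmb5, chr14:54617996-54618245, minus strand: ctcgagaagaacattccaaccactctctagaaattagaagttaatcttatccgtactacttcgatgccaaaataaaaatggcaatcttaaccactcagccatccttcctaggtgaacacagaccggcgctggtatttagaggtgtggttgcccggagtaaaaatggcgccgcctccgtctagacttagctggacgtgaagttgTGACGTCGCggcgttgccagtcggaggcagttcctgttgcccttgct
Positions count back from -1, the base next to the start. The CCAAT match begins at -175 in Psmc1 and, on the opposite strand, at -14 in Psme3. The TGACNNNGC match begins at -47 in Psmb5 and, on the opposite strand, at -247 in Psmd12.

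Promoter windows were found for 34 of the 41 genes. TGACNNNGC was present in 5 of the 34, or 14.7%, against 13.5% of the 9883 measured genes with a window. CCAAT was present in 41.2%, against 39.8%, and GCGTG, the core of the AhR response element, in 41.2%, against 44.7%. Over all 32851 windows the shares were 10.2% for TGACNNNGC, 33.8% for CCAAT and 28.2% for GCGTG. Both strands were searched and each motif was counted by itself, so overlapping matches count for each.

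The next comparison asks how proteasome genes in thymocytes respond to TCDD. The mean under TCDD was lower for 33 of 41 genes (51.4% of all genes) and higher for 8 (48.6%). The median log2 difference was -0.19, with -0.01 over all genes. Without the 2 genes that are no subunit it was -0.18. Both TCDD arrays lay below both oil arrays for 13 of 41 (11.4% of all genes) and above them for 1, Psmc6 (9.78%). Of the 13, 2 are no proteasome subunit, namely Psmc3ip (-0.20) and Psme3ip1 (-0.23). The labels do not say what equal array numbers share. Between arrays of the same number, TCDD was lower in both for 26 of 41 (28.9%) and higher in both for 2 (25.7%). The median was -0.05 without TCDD 1, -0.40 without TCDD 2, -0.38 without oil 1 and -0.04 without oil 2.

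No gene passed the test in thymocytes (limma, 0 of 41 and 0% of all genes), not even Cyp1b1, with the highest difference of any gene (4.20). The fit took no account of array numbers. Differences between arrays 1 and 2 correlated between TCDD and oil thymocytes at 0.76 over all genes and 0.90 over the members. This shared part stayed in the SEs, so a lack of calls does not show a lack of response. At an unadjusted p under 0.05, 4 of the 41 were lower (0.629% of all genes) and 0 higher (0.936%). The shares of the brighter genes were 1% and 1.63%. The 4 were Psmd12, Psmc1, Psmc3 and Psmd5. The oil thymocytes used here are also those of the comparison of oil emigrants with oil thymocytes.

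The base ATPases had a median of -0.37 and the other base subunits one of -0.43. Psmc1, at 6.86 and 6.53 under TCDD against 7.76 and 7.32 under oil, had a 1.79-fold lower mean (log2 difference -0.84, SE 0.26, limma adjusted p = 1). Its arrays did not overlap. Psmc3 had 7.71 and 7.92 under TCDD against 8.24 and 8.26 under oil (-0.43, SE 0.16). Psmc2 was lower without overlap (-0.36), and Psmc6 was higher without overlap, at 9.08 and 9.15 against 8.67 and 9.06 (0.25, SE 0.19). The scaffold gene Psmd1 had 7.79 and 7.28 under TCDD against 8.11 and 8.16 under oil, also without overlap (-0.60, SE 0.34).

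The 3 assembly chaperones of the base all had lower means. Psmd5 had 6.39 and 6.72 under TCDD against 6.98 and 7.43 under oil (-0.65, SE 0.26). Psmd9 had 5.32 and 5.25 against 5.65 and 5.50 (-0.29, SE 0.14). Neither overlapped, though a second Psmd9 probe set (mean level 5.06) gave 0.13, while Psmd10 did (-0.38, SE 0.74). In the lid all 8 genes had a lower mean, with a median of -0.19. The differences of Psmd7 (-0.02), Psmd8 (-0.05) and Psmd3 (-0.08) were small. With single arrays left out, Psmd3, Psmd6, Psmd7, Psmd8 and Psmd13 took both signs, with Psmd6 from -1.21 to 0.65. Psmd11, Psmd12 and Psmd14 stayed lower. Psmd12, at 6.84 and 6.62 under TCDD against 7.15 and 7.51 under oil, had the lowest difference of the lid (-0.60, SE 0.18), and Psmd11 (-0.31) was the other lid gene without overlap. Other Psmd11 probe sets above the array median gave -0.12 (mean level 8.58) and, with the opposite sign, 0.33 (mean level 7.67).

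In the core particle the median difference was -0.10. The alpha ring had a median of -0.06, with 5 of 8 genes lower and 0 without overlap. The beta ring had one of -0.11, with 6 of 7 lower. Psmb5 had 7.99 and 8.51 under TCDD against 8.53 and 8.60 under oil (-0.32, SE 0.24), and Psmb6 8.55 and 9.14 against 9.21 and 9.25 (-0.38, SE 0.50). Both were lower without overlap, by less than 2 SE. Psmb7, at 8.25 and 9.43 against 8.36 and 10.63, overlapped (-0.65, SE 0.79). The activator genes differed by 0.04 for Psme1, -0.27 for Psme3 and 0.16 for Psme4, and the inhibitor gene Psmf1 by -0.15. The summed proliferation signal was also lower under TCDD between same-numbered arrays (12393 against 15106 and 8678 against 11865). Of its genes, Mki67 was higher in both pairs (10.41 against 10.40 and 8.37 against 7.73). Top2a and Bub1 were higher in the array 2 pair, and the others were lower in both. The early T progenitor sums were higher without overlap (3014 and 3007 against 2709 and 2425) and the macrophage sums lower (1050 and 1250 against 1301 and 1387). The part of these lists was not tested.

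**Figure D4:**
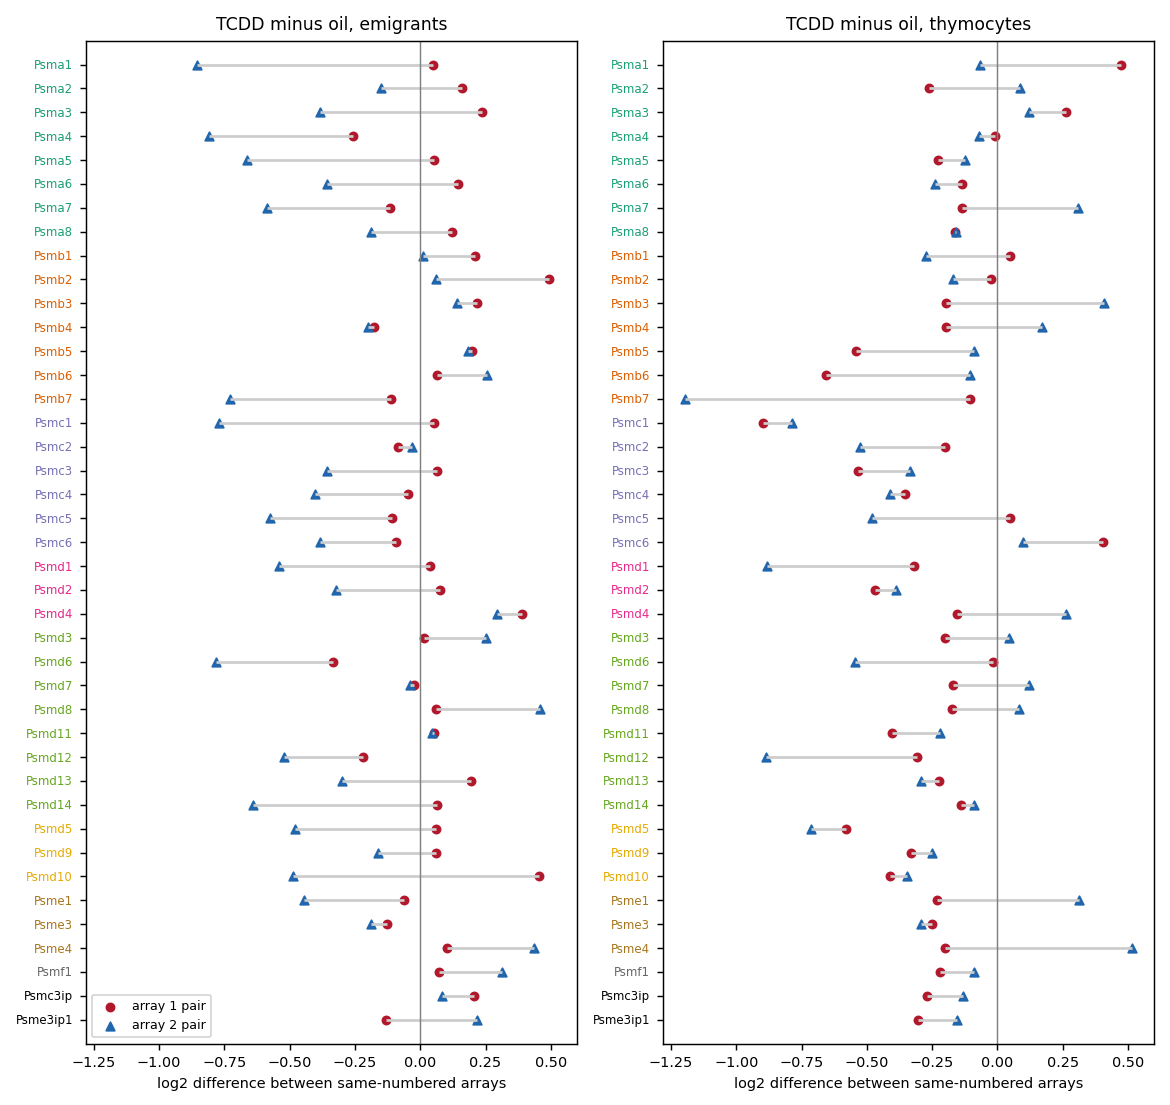
Log2 difference, TCDD minus oil, between arrays of the same number for each of the 41 genes, in emigrants on the left and thymocytes on the right (circle: array 1 pair, triangle: array 2 pair, line: the span between them). In emigrants both symbols lie left of 0 for 13 genes and right of it for 12, and in thymocytes for 26 and 2.

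In emigrants the TCDD differences went both ways. The mean was lower for 27 of 41 genes (44.4% of all genes) and higher for 14 (55.6%), with a median of -0.07 and 0.03 over all genes. The TCDD arrays lay below the oil arrays without overlap for 6 of 41 (10.1%) and above them for 5 (14.6%). Between arrays of the same number TCDD was lower in both for 13 (22%) and higher in both for 12 (26.9%). The median was -0.19 without TCDD 1, 0.01 without TCDD 2, -0.18 without oil 1 and 0.02 without oil 2. With emigrants oil 1 moved to the TCDD group, after its Treatment field, it was -0.18. No gene passed (limma, 0 of 41 and 0% of all genes), and at an unadjusted p under 0.05 there were 0 lower (0.637% of all genes) and 0 higher (0.541%). Here too the SEs kept the part that same-numbered arrays shared (correlation 0.50 over all genes and 0.72 over the members).

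The rings of the core particle had medians of opposite sign, a difference that was not itself tested. Of the alpha genes 7 of 8 had a lower mean under TCDD (median -0.20), and of the beta genes 5 of 7 a higher one (median 0.16). The higher beta means depended on the probe set used. Other sets above the array median had the opposite sign for Psmb1 (-0.05, mean level 6.10) and Psmb3 (-0.30, mean level 6.45). Those of Psmb4, Psma5, Psma6 and Psma7 kept the sign. Psma4, at 7.81 and 7.53 under TCDD against 8.07 and 8.34 under oil, was the alpha gene without overlap (-0.53, SE 0.56). Psmb1, at 8.74 and 8.69 against 8.54 and 8.68, lay higher without overlap (0.11, SE 0.20), and Psmb4, at 10.63 and 10.60 against 10.81 and 10.80, lower (-0.19, SE 0.51). Each of these was smaller than its SE. Psmb5 differed by 0.19, Psmb6 by 0.16 and Psmb7 by -0.42, with overlap.

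All 6 ATPase genes had a lower mean under TCDD (median -0.23). Psmc1 had the lowest, at 5.86 and 5.38 against 5.81 and 6.15, which overlap (-0.36, SE 0.26). Psmd12 was the member with the smallest p, at 5.86 and 5.72 under TCDD against 6.08 and 6.24 under oil (-0.37, SE 0.18, limma adjusted p = 0.9998). Psmd4, at 7.68 and 7.47 against 7.29 and 7.18, was higher (0.34, SE 0.18), and its probe set at a mean level of 6.77 gave 0.09. Psmf1, at 5.82 and 6.00 against 5.74 and 5.68, was higher without overlap (0.19, SE 0.15), as was Psme4 (0.27, SE 0.56), whose second probe set gave -0.06. Psme3 was lower without overlap (-0.16, SE 0.18), and Psme1 overlapped (-0.25, SE 0.34). The difference between the 3′ and 5′ probe sets of the actin control was 4.68 and 3.79 in TCDD emigrants, against 3.92 and 3.34 in oil emigrants, and for Gapdh it was 4.97 and 5.32, against 4.81 and 4.91. Platelet sums were 488 and 1222 in TCDD emigrants, against 286 and 389 in oil emigrants, and macrophage sums 2661 and 2732 against 1452 and 1826, both higher under TCDD without overlap. NK sums (720 and 882 against 1005 and 1333) and thymic epithelial sums (158 and 161 against 171 and 186) were lower without overlap. The part of RNA quality and of these lists was not tested.

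The TCDD responses were then set against each other, emigrants minus thymocytes. This difference was above 0 for 29 of 41 genes (56.7% of all genes) and below it for 12 (43.3%), with a median of 0.21 and 0.04 over all genes. It depended on the probe set more often than any other comparison. Of the 15 genes with another set above the array median, 10 had such a set with the opposite sign or a difference over 3 times smaller. No gene passed (limma, 0 of 41 and 0% of all genes), and at an unadjusted p under 0.05 there were 0 higher (0.29%) and 0 lower (0.888%). Without thymocytes TCDD 1 the median was -0.03, and without thymocytes oil 2 it was 0.00, with 21 genes below 0 in each. The smallest p-values were those of Psmc6 (-0.49, SE 0.27), Psmf1 (0.35, SE 0.21), Psmb5 (0.51, SE 0.34) and Psmc1 (0.48, SE 0.36), at a limma adjusted p of 0.9997.

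Proteasome genes also varied between the arrays of a group, above all in thymocytes. Arrays 1 and 2 differed by over 1 log2 unit for 1 of 41 genes in TCDD emigrants (6.09% of all genes) and 3 in oil emigrants (5.62%), and for 10 in TCDD thymocytes (5.03%) and 12 in oil thymocytes (7.83%). All 8 alpha ring genes were higher in array 2 of both thymocyte groups. Psma3, Psma4, Psmb4, Psmb7, Psmc5, Psmd6, Psmd13 and Psmd10 were higher in array 2 by over 1 unit in both, and Psmd2 was lower by over 1 unit in both. Psmd13 lay at 5.56 and 6.99 in TCDD thymocytes 1 and 2 and at 5.78 and 7.29 in oil thymocytes 1 and 2, and Psmd2 at 9.13 and 7.71 and at 9.59 and 8.10. The sign was the same in both thymocyte groups for 36 of 41 genes, against 75.6% of all genes. The 3′ minus 5′ difference of actin was 4.31 and 3.06 in TCDD thymocytes 1 and 2 and 4.12 and 3.12 in oil thymocytes 1 and 2, and that for Gapdh 5.90 and 4.78 and 6.23 and 4.97. The part of RNA quality in this spread was not tested.

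**Figure D5:**
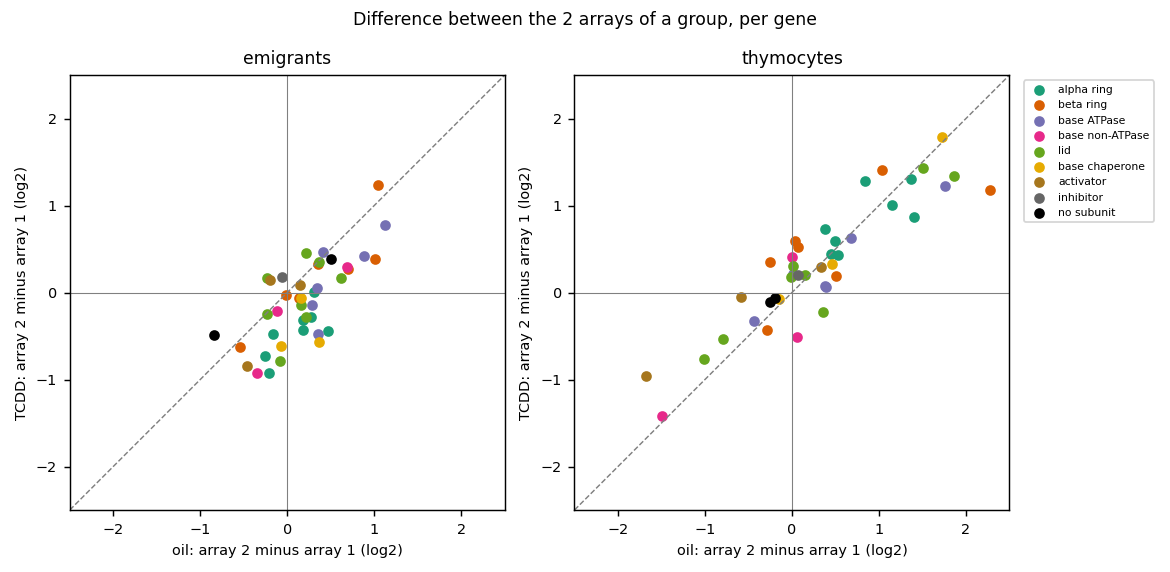
Log2 difference between array 2 and array 1 of a group for each of the 41 genes, with the TCDD group on the vertical and the oil group on the horizontal axis, in emigrants on the left and thymocytes on the right; the dashed line marks equal differences. In thymocytes 36 of 41 genes have the same sign in both groups, and in emigrants 27.

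Genes that act with the proteasome were set beside it, with 27 measured and none past the test in any comparison. Of these 17 had a lower mean in emigrants under TCDD (42.8% of all genes) and 18 under oil (49.6%), with median differences of -0.15 and -0.20. Under TCDD the smallest p was that of Ubqln2, which carries ubiquitylated proteins to the proteasome, with 8.51 and 7.94 in emigrants against 9.04 and 9.17 in thymocytes (-0.88, SE 0.26, limma adjusted p = 0.444). Its arrays did not overlap. Psmg2, a chaperone of alpha ring assembly, and Uchl5, a deubiquitinase of the base, followed at -1.21 and -1.09. Under oil the first 3 were Nploc4, a cofactor of the p97 segregase (-0.42), Psmg3, another assembly chaperone (-0.70), and Ubqln4 (-0.41). For TCDD in thymocytes 17 of 27 were lower (51.4% of all genes) at a median of -0.02, led by Nploc4 (-0.41), its partner Ufd1 (-0.41) and Ubqln4 (-0.27). In emigrants 16 of 27 were lower (44.4% of all genes) at a median of -0.04. The smallest p there was that of Ubr4, a ubiquitin ligase, which was higher under TCDD (0.53). Zfand5 (-0.27) and Uchl5 (-0.76) followed. For the difference between the responses Nploc4 (0.44), Ubr4 (0.64) and Zfand5 (-0.48) led. Nfe2l1, which encodes the factor NRF1 that drives proteasome genes when the protease is impaired, stayed between 6.61 and 6.88 in all 8 arrays.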

How the data were processed

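RNA from the sorted cells was amplified before hybridisation, per the labels' protocols. The deposited table holds log2 expression of 22690 probe sets, and the submitters' processing notes name RMA. RMA makes the arrays' distributions alike, so a shift shared by most genes would not be seen, and it compresses differences of dim probe sets. Values ran from 2.54 to 13.9.

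Gene names come from the platform's annotation table and were brought up to date by gene identifier through a RefSeq table (GRCm38.p6), except that proteasome genes keep the platform symbol. Those with several symbols (691) or no symbol (1606) were left out, and 20393 stayed. Of the 41 proteasome genes, 20 had over 1 probe set, and in 15 of these another set lay above the array median. Depending on the comparison, in 4 to 10 of the 15 such a set had the opposite sign or a difference over 3 times smaller.

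Groups were compared in limma 3.58.1 under R 4.3.3, with 1 mean per group fitted to all 8 arrays (4 residual degrees of freedom), eBayes moderation and Benjamini-Hochberg adjustment over 12394 genes at 0.05. In simulated arrays of emigrants minus thymocytes under oil (12394 genes, 200 changed per size, arrays varying independently), the test recovered 49.5% of genes changed by 1 log2 unit, 84.5% at 2 and 98% at 4, and called 28 unchanged genes. The real arrays were not independent, as same-numbered ones within a source deviated together. In the real comparison 0 genes passed, though differences ran from -4.24 (Ly6d) to 2.89 (Evl). The simulated shares thus do not give the power of the test on these data.

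Every member is covered. Per-array values go to the 4 members with the smallest p in each comparison, the catalytic subunits, the activators and the inhibitor, and the 3 linked genes with the smallest p are named. Other members with values per array were picked after seeing them. The members and lists were chosen with earlier results of these data known. The alternatives changed the normalization, the genes and probe sets used, the prior, the arrays fitted, the replicate block, the oil 1 label and each array in turn. The counts of members with a lower mean under them were added after seeing the data. Figures used matplotlib 3.10.9.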

Additional observations from a re-analysis of the deposited data

Results flagged for a closer look

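The genes Psmc6 and Psmf1 had TCDD arrays wholly above the oil arrays in one cell source and wholly below them in the other. The share of all genes with such opposite orders was not counted, so the pair cannot be set against it. Taken singly, 9.78% of all genes lay higher and 11.4% lower without overlap in thymocytes. In emigrants 14.6% lay higher and 10.1% lower. Psmc6 lay at 8.57 and 8.63 in TCDD emigrants, against 8.66 and 9.01 in oil emigrants, and at 9.08 and 9.15 in TCDD thymocytes, against 8.67 and 9.06 in oil thymocytes. The difference between its TCDD responses, emigrants minus thymocytes, was -0.49 on the log2 scale. Psmf1 lay at 5.82 and 6.00 in TCDD emigrants, against 5.74 and 5.68 in oil emigrants, and at 5.54 and 5.74 in TCDD thymocytes, against 5.76 and 5.83 in oil thymocytes, a difference between responses of 0.35. The opposite order of the arrays was not tested as such, and the limma test of the difference over all genes gave an adjusted p of 0.9997 for both. A dimmer Psmc6 probe set, at a mean level of 6.48, gave -0.61.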

How the results depend on the processing

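Among the alternatives run, proteasome genes passed only with the replicate block within each source. The labels do not say what the replicate numbers mark. Deviations of same-numbered arrays correlated across all genes at 0.50 between the emigrant groups and 0.76 between the thymocyte groups. Over the members these correlations were higher, at 0.72 and 0.90. Across the sources they lay between -0.10 and 0.11 over all genes and between -0.12 and 0.35 over the members, so not every pair of groups deviated together. The block over all arrays called 0 members in each comparison. With the replicate block within each source, 1 gene passed for TCDD in thymocytes, 462 for emigrants against thymocytes under TCDD and 819 under oil, among them 3 members under TCDD (Psma4, Psmd6, Psme3) and 7 under oil (Psmb6, Psmc1, Psmc3, Psmd2, Psmd8, Psmd12, Psme3). By its construction this fit takes the shared difference between arrays 1 and 2 of each source out of the error of comparisons between sources, so those p-values are too small.

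With the Treatment field for emigrants oil 1, the genes called were 1 for TCDD in emigrants, 18 and 3 for emigrants against thymocytes under TCDD and under oil, and 1 for the difference between responses. This leaves 1 oil emigrant array, as leaving out an array leaves its group with 1, and the lone array is assumed to vary like the other groups. Under oil the mean of probe sets called 1 gene. Under TCDD a repeated quantile normalization called 2 and the trend and robust prior 1. With arrays left out in turn, the number of genes called ran from 0 to 2 for TCDD in emigrants and from 0 to 10 for emigrants against thymocytes under TCDD. The member median ran from -0.40 to -0.045 for TCDD in thymocytes and from -0.034 to 0.29 for the difference between responses, where 7 to 21 members had a lower mean. A lower mean in emigrants held for 26 to 32 members under TCDD and 28 to 40 under oil. The cause of these changes was not tested.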
